A study of Mus musculus with 17 samples.

Results

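This report describes 700 places in the mouse genome where RUNX1 binding was called in every library without the leukaemia fusion protein CM, was called in neither library with it, and where the chromatin remodeller CHD7 was also found. They were chosen from peak calls. Overlapping peaks of the 8 RUNX1 lists gave 21664 merged RUNX1 sites, of which 8531 were called in all 6 lists without CM and 2384 of those (27.9%) in neither CM +Dox list. Of these lost sites, 2019 were distal, which means more than 1 kb from both ends of every protein-coding gene. The 700 members are the distal lost sites that overlap a CHD7 peak in at least 4 of the 6 CHD7 lists without CM. The loss of RUNX1 and the presence of CHD7 without CM are therefore fixed by the choice and are not findings. What the choice did not use is the CHD7 signal in the CM +Dox cells.

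The study mapped RUNX1 and CHD7 by chromatin immunoprecipitation and sequencing in the mouse cell line 416B, which has the features of a myeloid progenitor, with 2 replicates of 4 conditions for each antibody. In CM +Dox, a clone carrying a Cbfb-Myh11 type A cDNA, joined through an F2A element to mCherry under a tetracycline-responsive element, was induced with doxycycline at 1 ug/ml for 24 hours. CM -Dox cells carry the same construct and were not induced. Control +Dox and Control -Dox cells carry the plasmid without the fusion, with and without doxycycline. All 4 conditions share a second plasmid with the silencer tTS, the transactivator rtTA and blasticidin resistance. The cultures were expanded from selected single cells, and the number of clones behind each condition is not given in the sources used here. Expression from a transgene in a cell line, not from the endogenous locus, limits these cells as a model of the leukaemia. The IgG library was not analysed here.

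RUNX1 is a transcription factor that blood stem and progenitor cells need. It binds DNA together with a partner, CBFB, and recognises sequences with the core TGTGGT or TGCGGT. CM arises in acute myeloid leukaemia when a chromosome inversion joins CBFB to the smooth muscle myosin heavy chain gene MYH11, and the fusion protein still binds RUNX1. CHD7 is a member of the chromodomain helicase family that moves nucleosomes using ATP and is found at many enhancers as well as at promoters.

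The peak lists held 8140 to 16163 peaks for RUNX1 and 16323 to 37698 for CHD7. The CM +Dox RUNX1 lists were the shortest of their antibody, with 8140 and 9710 peaks, while the CM +Dox CHD7 lists, with 33462 and 31688 peaks, were longer than at least 4 of the 6 CHD7 lists without CM. With the lists of each antibody cut to the length of its shortest, 285 of 1881 distal CHD7-bound sites (15.2%) were lost, against 700 of 3156 (22.2%) with the lists as deposited. That cut changed both antibodies at once, and the part of RUNX1 list length alone in the loss was not tested. In 1 RUNX1 library, replicate 1 of Control -Dox by its label, the peak names contain a +Dox tag. It was kept in its labelled group, and the results without it stand beside those they touch. RUNX1 peaks over Cbfb, whose coding sequence is part of the CM construct, numbered 4 in each CM +Dox list, 3 and 1 in the CM -Dox lists and 0 in each of the 4 control lists. Read depth is unknown. A weaker peak in a bulk culture can mean fewer cells with the protein at the site or less of it in each cell, and these cannot be told apart.

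For a few members that lie on an annotated start, part of the sequence could be read. Distal here refers to the ends of protein-coding genes, so some members lie on the start of a noncoding RNA or on a start site inside a gene. Of the 700 members, 28 (4%) overlapped a RefSeq promoter window, which runs from 250 bases before to 50 after an annotated start, compared with 140 of 1930 kept sites (7.25%) and 15 of 572 lost sites without CHD7 (2.62%). Kept sites are the distal CHD7-bound sites that RUNX1 called in all 8 lists, and lost sites without CHD7 are the distal lost sites that none of the 6 CHD7 lists without CM called. The stretches below are the part of a window that lies before the start and inside the member site, read on the gene's strand from RefSeq, build GRCm38.p6. Capitals mark TGTGGT or TGCGGT on either strand, so ACCACA and ACCGCA are their reverse complements. The first 2 are shown because their sites have the highest RUNX1 ranks among members with such a stretch, the third because CHD7 was called in neither CM +Dox list there, and the last 5 because they are the stretches found at the 10 members with the highest CHD7 rank (for Snhg17, the longer of 2 nested ones).
St7, alternative start inside the gene, chr6:17748920-17749169, plus strand: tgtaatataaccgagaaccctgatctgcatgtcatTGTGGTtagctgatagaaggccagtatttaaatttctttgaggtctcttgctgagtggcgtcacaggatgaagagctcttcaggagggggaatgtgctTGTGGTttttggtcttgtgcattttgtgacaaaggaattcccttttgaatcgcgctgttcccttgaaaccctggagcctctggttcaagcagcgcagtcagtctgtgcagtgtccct
Gm52667, a start inside Pde4b, chr4:102569427-102569658, minus strand: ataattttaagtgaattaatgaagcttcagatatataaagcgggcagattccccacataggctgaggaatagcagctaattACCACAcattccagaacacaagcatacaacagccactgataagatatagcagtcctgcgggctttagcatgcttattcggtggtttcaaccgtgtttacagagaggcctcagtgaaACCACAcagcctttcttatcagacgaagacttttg
Gm35922, chr19:28770516-28770765, plus strand: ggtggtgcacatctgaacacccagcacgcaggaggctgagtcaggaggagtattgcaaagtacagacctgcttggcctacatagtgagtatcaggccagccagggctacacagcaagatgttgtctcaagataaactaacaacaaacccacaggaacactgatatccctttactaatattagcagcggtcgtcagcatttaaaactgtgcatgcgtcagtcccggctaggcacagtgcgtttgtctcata
Snhg17, chr2:158361510-158361695, minus strand: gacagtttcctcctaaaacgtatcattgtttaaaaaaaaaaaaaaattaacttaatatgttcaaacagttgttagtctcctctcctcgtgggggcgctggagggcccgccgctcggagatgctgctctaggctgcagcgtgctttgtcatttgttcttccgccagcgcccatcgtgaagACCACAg
Gm31771, a start inside Pam, chr1:97910857-97911102, plus strand: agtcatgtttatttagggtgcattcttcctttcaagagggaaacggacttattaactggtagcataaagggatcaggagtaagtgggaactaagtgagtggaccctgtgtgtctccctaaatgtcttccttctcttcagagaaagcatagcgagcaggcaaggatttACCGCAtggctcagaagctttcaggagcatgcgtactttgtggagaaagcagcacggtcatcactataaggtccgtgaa
Nudcd3, chr11:6200452-6200565, minus strand: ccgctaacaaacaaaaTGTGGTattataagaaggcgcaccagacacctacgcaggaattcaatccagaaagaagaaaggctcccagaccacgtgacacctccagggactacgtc
Tars2, chr3:95754978-95755154, minus strand: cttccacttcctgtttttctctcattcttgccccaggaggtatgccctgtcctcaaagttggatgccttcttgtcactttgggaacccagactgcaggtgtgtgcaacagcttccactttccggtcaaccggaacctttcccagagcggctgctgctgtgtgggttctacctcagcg
Wipf1, chr2:73485754-73486003, minus strand: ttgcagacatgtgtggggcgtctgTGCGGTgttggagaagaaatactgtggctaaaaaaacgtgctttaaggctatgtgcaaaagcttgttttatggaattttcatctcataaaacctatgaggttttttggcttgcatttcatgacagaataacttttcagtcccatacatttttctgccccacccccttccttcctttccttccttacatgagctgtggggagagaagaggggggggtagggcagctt
The St7 and Gm52667 stretches hold 2 such motifs each, those of Gm35922 and Tars2 none, and the other 4 hold 1 each. Their mean RUNX1 percentile ranks over the 6 lists without CM were 89.0 at St7 and 74.3 at Gm52667, but 66.1 at Snhg17, 55.3 at Gm35922, 48.0 at Nudcd3, 44.9 at Gm31771, 21.7 at Tars2 and 11.7 at Wipf1. A percentile rank places a peak's score among all peaks of its own list, with 100 the highest and 0 for no peak. Over all windows lying at least 150 bases inside a site, a RUNX motif was found in 13 of 31 windows at members (41.9%), 61 of 144 at kept sites (42.4%) and 10 of 13 at lost sites without CHD7 (76.9%), against 22.4% of all 32817 RefSeq windows. The ETS motif GGAAGT was found in 32.3% of member windows, 45.8% of kept windows, 46.2% of windows at lost sites without CHD7 and 23.8% of all windows. The GATA motif AGATAA was found in 19.4%, 11.8%, 7.69% and 11.2% of the same 4 sets, and the AP-1 motif TGANTCA in 12.9%, 9.72%, 15.4% and 7.81%. All motifs were searched on both strands, none of them contains another, and a match is a description of the letters only. The counts of windows are small, and most members lie outside any window.

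CHD7 was called at fewer of these sites in the cells with induced CM. Of the 700 members, 281 (40.1%, Wilson 95% interval 36.6% to 43.8%) had a CHD7 peak in CM +Dox replicate 1 and 372 (53.1%, 49.4% to 56.8%) in CM +Dox replicate 2. The intervals cover counting error only. Because the 6 lists without CM took part in choosing the members, their raw shares are too high to set beside these, and a held-out value was used instead. For each list without CM, the share was taken only at lost distal sites that at least 4 of the other 5 lists without CM call, which were 536 to 594 of the 700 members, and a CM +Dox list received the mean over the same 6 subsets. The held-out value does not make the footing fully equal. The other 5 lists include the second replicate of the same condition, while no CM +Dox CHD7 list took part in any choice. None of the 700 members was removed by a filter on low values.

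The held-out CHD7 share at members was 44.3% and 56.6% in the CM +Dox lists, against 75.8% and 90.8% in CM -Dox, 80.3% and 80.3% in Control +Dox, and 77.8% and 91.8% in Control -Dox. Both CM +Dox lists lay below all 6 others, and the other 3 conditions overlapped each other. The mean was 50.4% ± 8.67 in CM +Dox (SD, n = 2) and 82.8% ± 6.81 in the lists without CM (SD, n = 6), a difference of -32.4 percentage points. In a two-sided exact permutation test over the 28 ways to choose 2 of 8 lists, p was 0.0357, the smallest this design allows, and 0.0476 after Benjamini-Hochberg adjustment over the 4 tests made. The difference was -33.7 points among replicates numbered 1 and -31.1 among replicates numbered 2. Whether the replicates were grown as separate cultures is not stated, and the p-values reflect no more than the spread among these libraries, part of which may be technical. The sites were chosen on RUNX1 absence in CM +Dox and were not chosen anew for each of the 28 ways. The p-values here and below do not allow for that choice.

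At kept sites the same measure differed less between the groups. It was 76.2% and 88.6% in CM +Dox, while the 6 lists without CM ran from 84.2% to 96.5%, so the 2 groups overlapped. The means were 82.4% ± 8.80 in CM +Dox (SD, n = 2) and 90.8% ± 4.67 without CM (SD, n = 6), a difference of -8.43 points. The next test asked whether the gap between members and kept sites differed between CM +Dox and the other lists. For this, the log2 odds ratio of a CHD7 call at members against kept sites was computed in each list. It was -2.01 and -2.58 in CM +Dox and between -1.48 and -0.61 in the 6 other lists. The ratio was below 0 in all 8 lists and lowest in the CM +Dox lists. The mean log2 odds ratio was -2.30 ± 0.41 in CM +Dox (SD, n = 2) and -1.12 ± 0.34 without CM (SD, n = 6). The difference of -1.18 gave p = 0.0357 and an adjusted p of 0.0476 by the same exact permutation test.

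**Figure D1:**
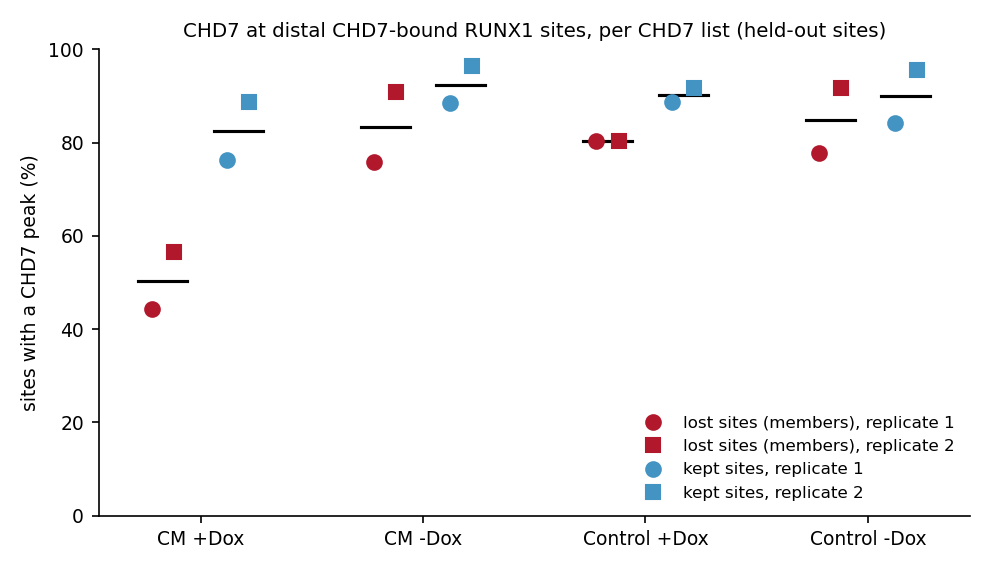
Share of sites with a CHD7 peak (y axis, %) in each CHD7 list, by condition (x axis), at held-out lost sites (red) and kept sites (blue); circles are replicate 1, squares replicate 2 and bars the mean of 2 lists. The 2 CM +Dox values at lost sites, 44.3% and 56.6%, lie below every other point.

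Counting peaks by rank, with 0 for none, largely restates the share of calls, and it differed in the same direction. The mean CHD7 percentile rank at members was 26.1 and 32.9 in the CM +Dox lists, against 44.5 and 64.9 in CM -Dox, 49.4 and 55.8 in Control +Dox, and 47.7 and 61.1 in Control -Dox. The groups did not overlap. The mean was 29.5 ± 4.76 in CM +Dox (SD, n = 2) and 53.9 ± 8.04 without CM (SD, n = 6), a difference of -24.4 ranks with p = 0.0357 and an adjusted p of 0.0476 in the exact permutation test. The difference was -37.6 ranks with lists of equal length. At members where a CHD7 peak was still called, its median rank was 67.1 and 61.7 in CM +Dox. These values lay inside the range of 57.5 to 77.1 in the lists without CM, but list lengths differed. The lists without CM closest in length had higher values. They were CM -Dox replicate 2 (37698 peaks), with 77.1, and Control +Dox replicate 2 (32448 peaks), with 70.2. The peaks that remained are a selected subset, and whether their rank changed was not tested. The median width of those CHD7 peaks was 415 and 442 bp in CM +Dox, against 449 to 556.5 bp in the others.

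In control cells the change with doxycycline was smaller than the spread of the Control -Dox replicates, though not than that of the Control +Dox replicates, which were almost equal. The held-out share at members was 83.3% ± 10.6 in CM -Dox, 80.3% ± 0.0299 in Control +Dox and 84.8% ± 9.90 in Control -Dox (SD, n = 2 each). The change with doxycycline was -32.8 points in cells with the CM construct and -4.50 points in control cells. The difference between these changes, -28.4 points, did not pass a two-sided exact permutation test of doxycycline labels within each construct (36 splits, p = 0.222, adjusted p = 0.222), in which the smallest possible p is 0.0556. Without the library whose peak names go against its label, 724 sites met the rule, and the 3 other differences were -31.4 points, -1.14 on the log2 odds scale and -23.4 ranks, each with an adjusted p of 0.0476 by the exact permutation test. Leaving out the second CM +Dox RUNX1 replicate admitted 1116 sites, and none of the 3 differences then passed: they were -25.1 points in share and -0.81 in log2 odds ratio, each with an adjusted exact permutation p of 0.0714, and -18.9 in mean rank, with an adjusted p of 0.0952. Asking for CHD7 in all 6 lists without CM left 305 members and a difference of -31.0 points, with an adjusted exact permutation p of 0.0714. Cutting the lists of each antibody to equal length left 285 members and a difference of -52.1 points, with an adjusted p of 0.0476.

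At CHD7 sites away from RUNX1, the shares called in CM +Dox were larger than at members. Of 4595 merged CHD7 sites called in at least 4 of the 6 lists without CM and free of any RUNX1 peak, 71.1% and 83.0% were called in the CM +Dox lists, while 76.1% to 92.2% were called in the lists that chose them. At members, chosen on CHD7 in the same way, the raw shares were 40.1% and 53.1% in CM +Dox and 79.4% to 93.7% in the lists that chose them. This difference between site sets was not tested.

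The change in CHD7 at members was steepest where RUNX1 had been strongest. All 5928 distal sites were split into quartiles of their mean RUNX1 rank over the 6 lists without CM. The members fell into them with 254, 193, 151 and 102 sites, lowest to highest. Along these quartiles, the held-out CHD7 share in CM +Dox replicate 1 was 56.4%, 43.6%, 34.1% and 30.6%. In CM +Dox replicate 2 it was 78.2%, 58.1%, 41.3% and 22.9%. Both lists were lower at each step. The mean of the 6 lists without CM was not, with 84.8%, 80.0%, 79.6% and 87.9%. The difference between CM +Dox and the lists without CM was thus -17.5, -29.2, -42.0 and -61.1 points.

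This order was not shared by the lists without CM taken singly. The share in the highest quartile minus that in the lowest was -25.8 and -55.3 points in the CM +Dox lists, against -5.92 and -0.0316 in CM -Dox, 4.12 and 12.4 in Control +Dox, and 4.69 and 3.20 in Control -Dox. The CM +Dox values lay below all others. The mean of the CM +Dox lists minus the mean of the others was -43.6 points, with -58.4 when CM +Dox CHD7 replicate 1 was left out and -28.9 without CM +Dox CHD7 replicate 2. This comparison was chosen after the values had been seen and carries no test. At kept sites, with 260, 310, 490 and 870 sites by quartile, the difference between CM +Dox and the lists without CM was 1.30, 1.14, -3.49 and -17.2 points. Kept sites in the highest quartile had 68.2% and 82.3% in CM +Dox and 85.5% to 97.3% without CM, so there too the 2 groups did not overlap.

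**Figure D2:**
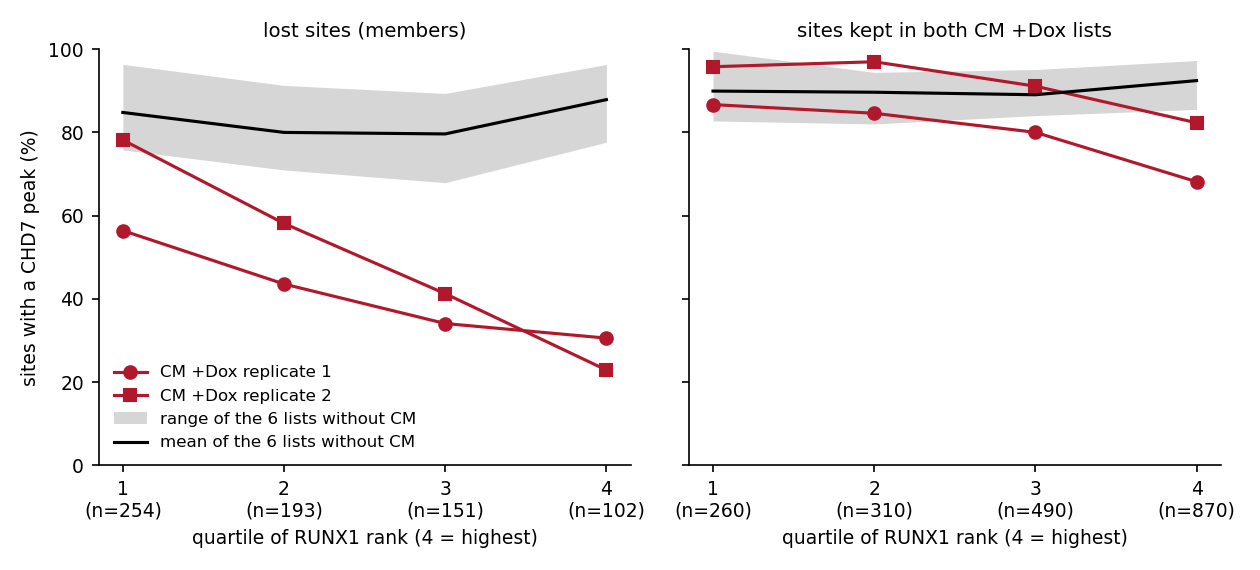
Held-out share of sites with a CHD7 peak (y axis, %) by quartile of RUNX1 rank (x axis, number of sites below) at lost sites (left) and kept sites (right). Red lines are the 2 CM +Dox lists, the black line is the mean and the grey band the range of the 6 lists without CM; at lost sites the red lines end at 30.6% and 22.9% while the black line ends at 87.9%.

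By CHD7's own rank without CM, the shares called in CM +Dox were higher in higher quartiles. That rank comes from the same lists that chose the members, which makes calls in any further list likelier in the higher quartiles. Shares without CM were not computed for these quartiles, so no change with CM is read from them. The quartiles were set on the CHD7 ranks of members and kept sites together. From lowest to highest, 26.2%, 41.1%, 52.1% and 63.8% of members were called in CM +Dox replicate 1. In replicate 2 the shares were 39.1%, 56.5%, 62.7% and 75%. Kept sites also had higher shares in higher quartiles, reaching 90.1% and 96.0% in the highest quartile, and lay above members in every quartile and both lists.

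Counting both CM +Dox lists together, 262 members (37.4%) had CHD7 in neither, 223 (31.9%) in 1 and 215 (30.7%) in both. Of the 1930 kept sites, 206 (10.7%) had it in neither, 385 (19.9%) in 1 and 1339 (69.4%) in both. Over all 3156 distal CHD7-bound sites, 17.5% had it in neither and 58.7% in both. The members without CHD7 in CM +Dox had a median RUNX1 rank of 71.7 and a median CHD7 rank of 43.8 in the lists without CM. Those with CHD7 in 1 list had 59.5 and 52.5, and those with it in both had 47.2 and 62.1. Site width hardly varied among the 3 classes, with medians of 405, 400 and 408 bp.

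Over all distal sites, not only members, the share that lost RUNX1 differed with CHD7, and this was not tested. Of distal sites called in all 6 RUNX1 lists without CM, 34.1% were lost. Among those with CHD7 in at least 4 lists, 700 of 3156 (22.2%) were lost, 526 stayed in 1 CM +Dox list and 1930 in both. With CHD7 in 1 to 3 lists, 747 of 1803 (41.4%) were lost, and with none, 572 of 969 (59.0%). The lost share was lower with more CHD7 lists within the members' range too, with 199 of 606 (32.8%) at 4 CHD7 lists, 196 of 720 (27.2%) at 5 and 305 of 1830 (16.7%) at 6. Within each RUNX1 quartile, lowest to highest, 35.7%, 30.6%, 19.5% and 9.80% of CHD7-bound distal sites were lost, against 67.6%, 63.2%, 53.9% and 36.8% of those without CHD7. Sites within 1 kb of a gene end were lost in 365 of 2603 cases (14.0%).

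Even among sites with the most regular CHD7 calls, fewer members than kept sites had CHD7 in CM +Dox. Where all 6 lists without CM called CHD7, 67 of 305 members (22.0%) had no CHD7 peak in either CM +Dox list, compared with 65 of 1266 kept sites (5.13%) and 8.74% of all 1830 such sites. At these members 55.1% and 68.2% were called in the CM +Dox lists, and at kept sites 82.9% and 92.7%. Held-out shares of members lay below those of kept sites without CM too, as given above. With CHD7 asked for in all 6 lists, the difference in log2 odds ratio was -1.10. It did not pass the exact permutation test (adjusted p = 0.0952). At the edge of the rule, members with CHD7 in 4 lists had 22.6% and 38.7% called in CM +Dox, and lost sites with CHD7 in 3 lists, just outside, had 17.4% and 25.4%. The 31 members between 1 and 2 kb from a gene end had 54.8% and 64.5%, and the 50 lost CHD7-bound sites within 1 kb of a gene end but not on it had 64.0% and 76.0%. The 526 distal CHD7-bound sites where RUNX1 stayed in 1 CM +Dox list had 62.0% and 78.3%.

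**Figure D3:**
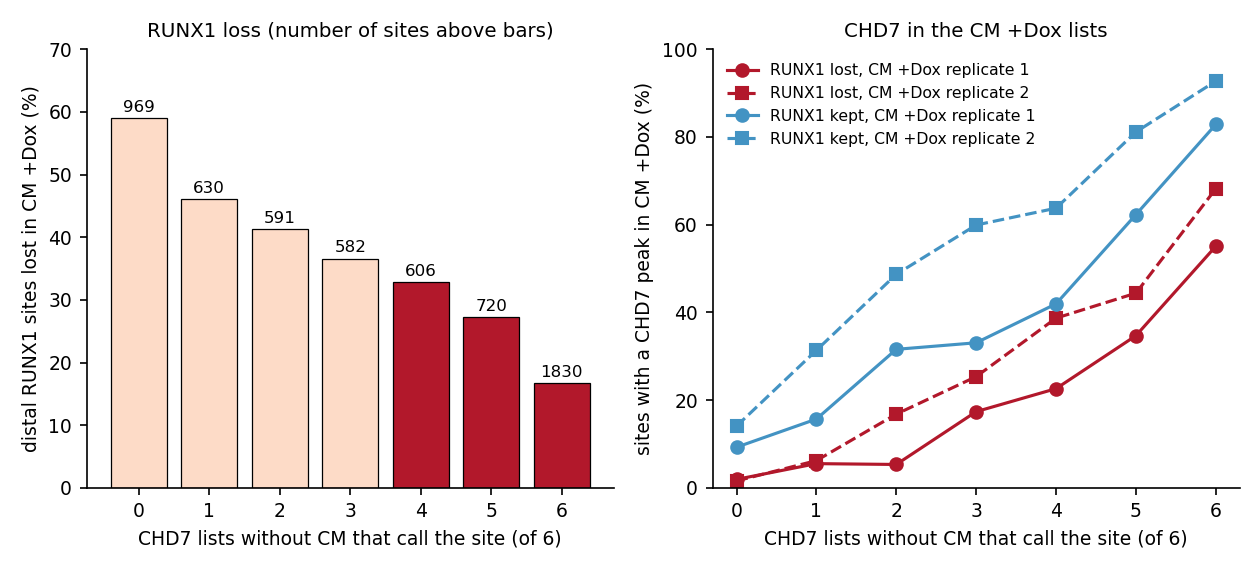
Left, share of distal RUNX1 sites lost in CM +Dox (y axis, %) by the number of CHD7 lists without CM that call the site (x axis; members' range in dark red, number of sites above bars). Right, share of lost (red) and kept (blue) sites with a CHD7 peak in each CM +Dox list; at 6 lists the lost sites have 55.1% and 68.2% and the kept sites 82.9% and 92.7%.

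The members had lower RUNX1 ranks than the kept sites. Their median RUNX1 rank was 61.4, against 83.6 at kept sites and 60.0 at lost sites without CHD7. Their median CHD7 rank was 52.1, against 67.8 at kept sites. The median merged width was 402 bp at members, 511 bp at kept sites and 337 bp at lost sites without CHD7. Kept sites merge peaks of 8 lists and members of 6, so the choice fixes part of that difference in width. Position told the sets apart less. Inside a protein-coding gene lay 353 members (50.4%), 50.9% of kept sites and 55.4% of lost sites without CHD7. Outside genes, the median distance to the nearest gene was 27.2 kb for members, 23.1 kb for kept sites and 15.2 kb for lost sites without CHD7, and 77 of 347 such members lay more than 100 kb away. Exons, introns and UTRs were not used here.

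Members were found on all 19 autosomes and X, and were rarely close to each other. The lost share of CHD7-bound distal sites was between 8.49% on chromosome 19 (9 of 106) and 33.8% on chromosome 14 (27 of 80). Another member lay within 10 kb of 59 members (8.43%), while 75 kept sites (3.89%) and 6 lost sites without CHD7 (1.05%) had a member that near. Sites that RUNX1 called in all 8 lists were also searched as neighbours, here with or without CHD7 and at any distance from gene ends. Such a site lay within 10 kb of 103 members (14.7%) and of 454 kept sites (23.5%). A RUNX1 peak of a CM +Dox list was within 1 kb of 23 and 35 members, so most members had none within that distance. The 28 members on a promoter window had CHD7 in 17 and 24 cases in CM +Dox (60.7% and 85.7%), against 39.3% and 51.8% of members elsewhere. Their median RUNX1 rank was 36.7, against 62.1 elsewhere.

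The 10 members with the highest RUNX1 rank mostly had no CHD7 in CM +Dox cells. CHD7 was called in neither CM +Dox list at 8 of them, in 1 list at 2 and in both at 0. Over all members 37.4% had it in neither list, and over all distal CHD7-bound sites 17.5%. Among kept sites too, those with CHD7 in neither CM +Dox list had a higher median RUNX1 rank (92.9) than those with it in both (80.7). The member with the highest RUNX1 rank, at chr13:111043611-111044129, lies 211 kb from Actbl2, an actin-like gene. Its RUNX1 ranks in the 6 lists without CM were 98.2 at the lowest, 99.7 at the median and 99.8 at the highest, among the strongest peaks of every list. Its CHD7 rank was 0 and 0 in CM +Dox, against a lowest of 33.3, a median of 64.9 and a highest of 92.0 without CM. At a single member the CHD7 ranks without CM took part in the choice, so here and at the sites below they describe the member and no difference is read from them.

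The site 43.6 kb from Map4k3, which encodes a kinase of stress signalling, was at chr17:80772455-80772878. Its CHD7 rank was 0 and 0 in CM +Dox, against 61.3, 86.0 and 91.8 (lowest, median and highest) without CM, where its RUNX1 ranks were 98.7 to 99.1. A member inside Pparg, the nuclear receptor known for adipocyte and macrophage programmes, lay at chr6:115434019-115434463. Its CHD7 rank was 0 and 0 in CM +Dox, against 61.3, 82.3 and 91.8 without CM, and its RUNX1 ranks there were 97.3 to 98.7. Both sites had a CHD7 peak in each of the 6 lists without CM.

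The member at chr9:116369054-116369710, 194 kb from Tgfbr2, a receptor for TGF-beta, kept a CHD7 peak in 1 list. Its CHD7 rank was 37.6 and 0 in CM +Dox, against 82.1, 91.5 and 94.9 without CM. The member inside Mctp1, at chr13:76421053-76421492, had CHD7 ranks of 0 and 28.7 in CM +Dox, against 57.5, 80.2 and 96.4 without CM. Each of these members thus had CHD7 in a single CM +Dox list. The other 5 sites, nearest to Nln, Slc24a5, Tmem132c, Pigg and Plcl1, had RUNX1 ranks between 94.8 and 99.4. None had CHD7 in CM +Dox, and their median CHD7 ranks without CM were between 31.1 at Tmem132c and 80.8 at Nln.

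Of the 10 members with the highest CHD7 rank, all 10 had CHD7 in both CM +Dox lists, against 30.7% of all members. They were picked on CHD7 ranks in the lists that chose the members, which made a call in further lists likely. Kept sites in the highest quartile of CHD7 rank had 90.1% and 96.0% called in CM +Dox. No contrast with the 10 members above is read from this. At chr3:108554617-108554986, 1.44 kb from Tmem167b, the CHD7 rank was 99.9 and 99.9 in CM +Dox, against 99.9, 99.9 and 99.97 (lowest, median and highest) without CM. The RUNX1 ranks at that site had been 62.0, 73.5 and 84.3. At chr2:158361313-158361695, the Snhg17 start printed above and 28.5 kb from Lbp, which encodes the lipopolysaccharide-binding protein, the CHD7 rank was 99.8 and 99.5 in CM +Dox, against 99.2, 99.5 and 99.7 without CM. There the RUNX1 ranks had been 50.03, 67.8 and 73.3. Both sites thus kept a CHD7 peak of high rank in both CM +Dox lists, where RUNX1 was not called.

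The site inside Pam, which encodes a peptide-amidating enzyme, had CHD7 ranks of 98.5 and 97.9 in CM +Dox, against 97.6, 97.8 and 98.8 without CM. The site inside Nudcd3 had 98.3 and 98.0 in CM +Dox, against 96.4, 97.1 and 98.2 without CM. The site at chr2:73485410-73486415 inside Wipf1, whose product binds the actin regulator WASP, had 97.5 and 97.4 in CM +Dox, against 95.4, 96.0 and 97.9 without CM. Its RUNX1 ranks, 2.84, 9.49 and 24.5, were among the weakest named. The other 5, nearest to Arhgap25, Tars2, Adgrg5, Psd3 and Cela3a, had CHD7 ranks of 93.9 to 98.6 in CM +Dox and 92.9 to 98.9 without CM, with median RUNX1 ranks of 18.9 at Tars2 to 74.2 at Adgrg5. The 5 members with the highest CHD7 rank in CM +Dox, nearest to Tmem167b, Lbp, Cela3a, Pam and Nudcd3, were all among these 10.

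**Figure D4:**
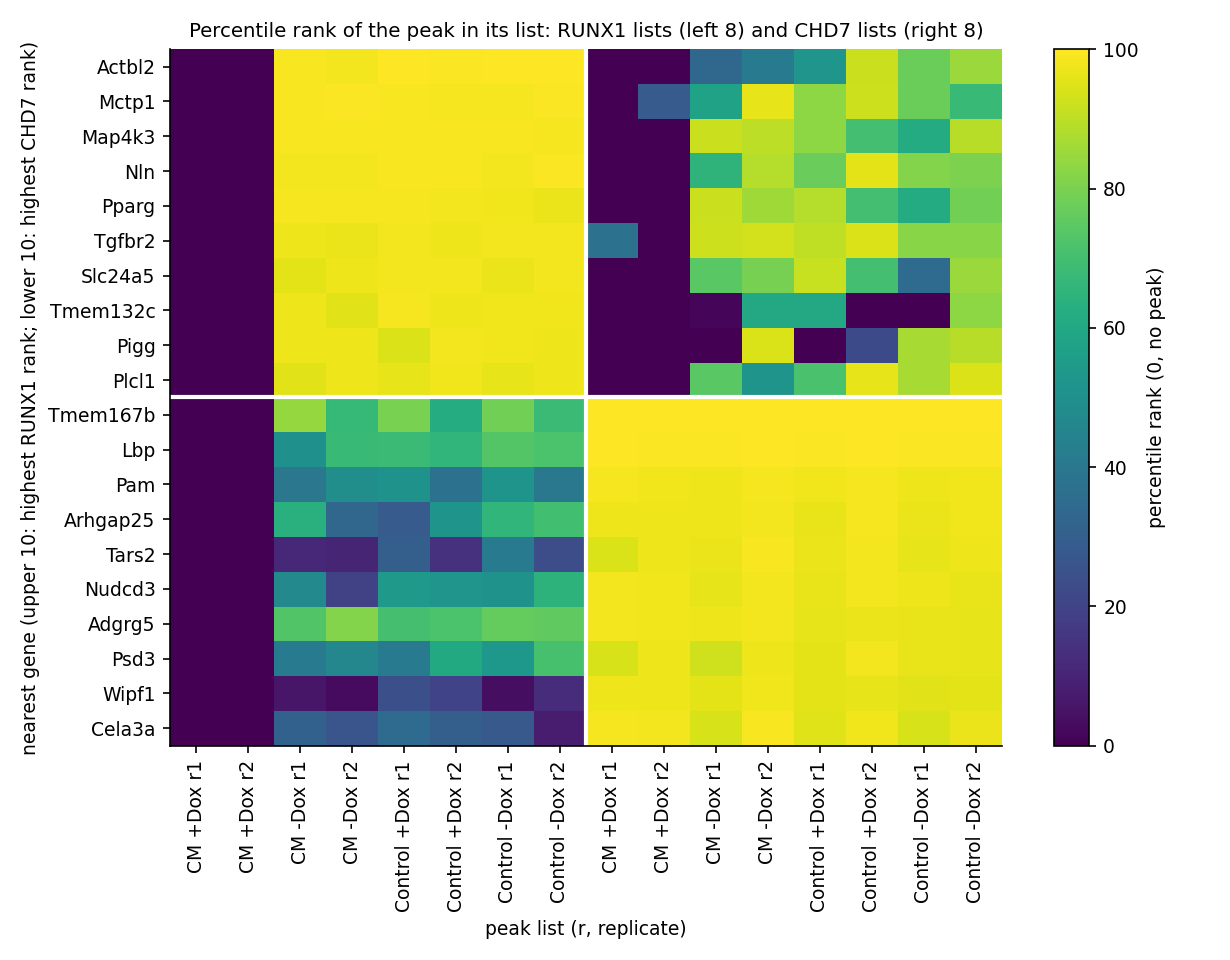
Percentile rank (colour, 0 for no peak) of the peak at each named member (rows, by nearest gene) in the 8 RUNX1 and 8 CHD7 lists (columns, CM +Dox first for each antibody). In the upper 10 rows, the members with the highest RUNX1 rank, CHD7 is at 0 in both CM +Dox lists in 8; in the lower 10, those with the highest CHD7 rank, it lies between 93.9 and 99.9 there.

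The members were spread over 610 nearest genes, of which 535 had 1 member, 61 had 2, 13 had 3 and 1 had 4. Nearest means position only, not a shown target. Fyb, an adaptor of T cells and platelets, had 4 members among its 7 distal CHD7-bound sites, all inside the gene. Their CHD7 ranks in CM +Dox were 97.6 and 87.7, 2.36 and 77.5, 0 and 0, and 0 and 0, so neighbouring members of 1 gene differed. The Fyb site with the highest RUNX1 rank, starting at base 6574619 of chromosome 15, was one of those with no CHD7 in CM +Dox.

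Of the 13 genes with 3 members, the 11 with the highest best RUNX1 rank were Tgfbr2, Perp, Rab27b, Exoc6b, Mef2c, Pde5a, Dnah12, Dock10, Snx5, Apbb1ip and Adam6a. Rab27b, a small GTPase of granule secretion, had 3 distal CHD7-bound sites, all of them members, and CHD7 was called at 0 of the 3 in either CM +Dox list. Of these sites, 2 had been called by CHD7 in all 6 lists without CM, with median CHD7 ranks of 89.2 and 74.1 there and median RUNX1 ranks of 96.0 and 92.9. Mef2c, a transcription factor of muscle and lymphoid cells, was nearest to 3 members 388 to 502 kb away, of which 2 had no CHD7 in CM +Dox and 1 had ranks of 24.7 and 0. Perp, a target of p53, had 3 members at 29.9 to 60.1 kb, with CHD7 in both CM +Dox lists at 2 of them and in 1 list at 1. Its strongest RUNX1 site had CHD7 ranks of 81.5 and 0 in CM +Dox, against 57.5, 74.9 and 91.4 without CM. Dock10 had 3 members of 8 CHD7-bound sites. The member starting at base 80606379 of chromosome 1 had no CHD7 in CM +Dox, against ranks of 63.4, 90.8 and 92.8 without CM. Apbb1ip, an adaptor for the GTPase Rap in integrin activation, had 3 members of 4 CHD7-bound sites, with CHD7 in both CM +Dox lists at 2. All 3 distal CHD7-bound sites inside Exoc6b, a subunit of the exocyst, were members, with CHD7 in both CM +Dox lists at 1 and in a single list at 2. The same held for Dnah12, a dynein heavy chain, with CHD7 in both lists at 2 and in neither at 1. At Pde5a, an enzyme that breaks down cGMP, and at Snx5, a sorting nexin, 3 of 4 sites were members each, and CHD7 was in neither CM +Dox list at 2 of the 3 in both genes. Tgfbr2 had 3 members of 5 sites, with CHD7 in neither list at 1 and in a single list at 2. The 3 members nearest to Adam6a lay 1041 to 1069 kb from it.

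Genes of 15 lists were then looked up, with a site credited to the nearest gene within 100 kb. The lists held 285 genes, all of which matched the gene table, and were near 114 distal CHD7-bound sites. Of these sites 16 were members (14.0%), against 623 of 2867 (21.7%) over all genes. Members were absent from 4 lists: myeloid differentiation genes (0 of 5 CHD7-bound sites), megakaryocyte and mast cell genes (0 of 8), cell cycle and apoptosis genes (0 of 8), and lymphoid genes, which had no such site. These 4 lists had few sites, so the absence of members is not read as a result. Most sites near list genes were among those kept, as were 1930 of all 3156 distal CHD7-bound sites.

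Stem and progenitor transcription factors had 3 members of 21 CHD7-bound sites, and 15 of the 21 were kept. A member lay inside Runx1 itself, at chr16:92821646-92822553, 3521 bases from the gene's nearer end. Its CHD7 rank was 0 and 0 in CM +Dox, against 38.9, 73.9 and 93.2 without CM, where its RUNX1 ranks were 93.5, 97.6 and 98.4. The member inside Elf1, an ETS factor, had CHD7 ranks of 0 and 77.5 in CM +Dox, against 51.8, 88.0 and 96.1 without CM. The member nearest to Ikzf1, which encodes the lymphoid regulator Ikaros, had 0 and 73.2 in CM +Dox, against 0, 46.1 and 80.8 without CM.

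Cytokine receptor and JAK-STAT genes had 3 members of 17 sites. Flt3, a receptor tyrosine kinase of progenitors, had a member with CHD7 ranks of 0 and 0 in CM +Dox, against 0, 27.6 and 88.4 without CM. The member at Ifngr1, a chain of the interferon-gamma receptor, had 24.7 and 20.2 in CM +Dox, against 0, 70.9 and 92.9 without CM. The member at Pim1, a kinase induced by cytokines, had 38.7 and 69.7 in CM +Dox, against 11.8, 52.5 and 90.5 without CM. CHD7 was thus called in both CM +Dox lists at Ifngr1 and Pim1 and in neither at Flt3, where some lists without CM also had none.

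Nuclear receptor genes had 2 members of 4 sites, both at Pparg, and neither had CHD7 in CM +Dox. The second Pparg member had CHD7 ranks of 71.4, 84.1 and 86.9 without CM. Among the other lists, the following had 1 member each: Fos among immediate-early genes (1 of 7 sites), Itga4 among integrins (1 of 9), Tgfbr2 in the TGF-beta pathway (1 of 5), Chd2 among chromatin remodellers (1 of 12), Rpl12 among ribosomal protein genes (1 of 2), Zeb2 among neural crest genes (1 of 3) and Apob among liver genes (1 of 1). Of these 7 members, only that at Chd2 had CHD7 in both CM +Dox lists, with ranks of 77.7 and 96.6 against 57.7, 88.9 and 96.1 without CM. Those at Zeb2 and Apob had it in neither.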

How the data were processed

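The 16 peak lists (8 for RUNX1, 8 for CHD7) were used as deposited, each made from 1 library. The submitters' processing notes name Bowtie2 2.0.6, MACS2 2.0.10 and the build mm10. Neither read filters nor the control used in peak calling were found in the labels. Each list holds a deposited score, the −log10 p-value of the peak, with a limit that its peak names give as 1e-09 (5 lists for RUNX1), 1e-07 (the other 3) or 1e-02 (all 8 for CHD7). The score was used for ranks within a list and, in some alternative settings, as a common limit for all lists of an antibody. Depth is unknown, and these values give no precision for a single site.

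Peaks of the 19 autosomes and the sex chromosomes were merged at 1 bp overlap. Distances used the RefSeq table of GRCm38.p6 (mm10), which lists 21883 protein-coding genes; motifs used its 32817 promoter windows. Odds ratios had 0.5 added to each count. Each test had 1 value per library, with Benjamini-Hochberg adjustment over 4 tests, computed in Python 3.11.15 with NumPy 2.4.6, pandas 2.3.3 and statsmodels 0.14.6. The held-out procedure was tested on simulated lists, drawn independently of each other at a given site strength. Likeness of replicates within a condition was not simulated, so the simulation cannot show that the value is fair here. No gene or site was given a p-value.

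The members and gene lists were chosen with earlier results of these data known. Sites were named as the 10 members with the highest mean RUNX1 rank, the 10 with the highest mean CHD7 rank and the 5 with the highest CHD7 rank in CM +Dox. Genes were named as up to 12 nearest to the most members, ties going to the best RUNX1 rank, and up to 4 per list. The result of 1 list is not reported here. Alternatives covered thresholds, list length, overlap, number of lists, gene distance and left-out libraries.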

Additional observations from a re-analysis of the deposited data

How the results depend on the processing

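The number of members was 285 with equal list lengths, 367 with CHD7 peaks limited to scores from the median of all CHD7 lists upward and 305 with CHD7 asked for in all 6 lists. It stayed within 1.5 times of 700 under the 5 other planned or added settings, of which the distance to every RefSeq start (652 members) was chosen after seeing the data. With a library left out it was 700 to 1116, the highest without RUNX1 CM +Dox replicate 2. Where a CHD7 list without CM was left out, the rule asked for CHD7 in at least 3 of the other 5. Those settings thus changed the rule as well as the libraries. Asking for CHD7 in all 6 lists gave differences of -31.0 points in share (adjusted p = 0.0714 in the exact permutation test), -1.10 in log2 odds ratio (adjusted p = 0.0952) and -26.5 in mean rank (adjusted p = 0.0714); under the 7 others each of these 3 differences kept its sign and an adjusted p of 0.0476. With a library left out, the difference in share was -38.5 to -25.1 points, in log2 odds ratio -1.47 to -0.81 and in mean rank -27.8 to -18.9. Without RUNX1 CM +Dox replicate 2 none of the 3 passed (adjusted p = 0.0714, 0.0714 and 0.0952 in the exact permutation test); without any other RUNX1 library all 3 did (adjusted p = 0.0476). Leaving out a CHD7 list cannot pass the threshold, since 2 against 5 lists allow a smallest exact p of 0.0476 and 1 against 6 of 0.143 before adjustment. The difference of doxycycline effects was -37.5 to -19.3 points with a library left out and did not pass the test under any setting. The change across RUNX1 quartiles, added after seeing the data, was -43.6 points, with -52.4 with that median limit and -58.4 to -28.9 with a library left out. Replicate numbers were not shown to pair the CHD7 libraries: deviations of same-numbered libraries from their condition means correlated at r = 0.0187 to 0.0870 for CHD7 and 0.177 to 0.506 for RUNX1, over 6 pairs of conditions and across 8531 sites, which are not independent. With the replicate number as a block, the differences were -32.4 points, -1.18 and -24.4, each with an exact permutation p of 0.0625, the smallest the block allows, and an adjusted p of 0.0833; the difference of doxycycline effects was -28.4 points (p = 0.375). The cause of these changes was not tested. Unknown depth limits what the absence of a peak shows at a single site.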
